A study of Mus musculus with 8 samples.

Results

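The antiviral interferon-stimulated genes described here are 35 mouse genes chosen by symbol from those known to be induced by interferon and to act against viruses. Each symbol matched a single Ensembl identifier among the 52636 genes of the deposited count table, and all 35 passed the filter on low counts that 15698 genes passed in all. Of the 35, Oas2 and Oas3 passed only through the WT libraries given cytokines, so those 2 could only be tested because they were high there. The cells were endothelial cells, which line blood vessels, grown in culture from mouse liver and sorted as live, CD31 and VE-cadherin positive and CD45 negative. The 4 groups of 2 libraries were dKO cells with cytokines, dKO cells without cytokines, WT cells with cytokines and WT cells without cytokines. The label dKO is not expanded, and the design text speaks of induced deletion of Erg, Fli1 or both, which encode transcription factors of the ETS family. Deletion was induced by 4-OHT, a metabolite of tamoxifen that switches on inducible Cre, and the sources disagree on where. The treatment label says that mice received it, while the design text gives 48 hours of 4-OHT in culture, with 7 days from its first addition. The cytokines were IL1B and TNFA together, present for the last 16 hours before lysis. The same 4-OHT protocol text is attached to all 8 samples, and the sources used here name neither the Cre driver nor the number of animals behind a library.

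Interferons are secreted proteins that cells release after sensing viral nucleic acid. Type I interferons bind the receptor made of Ifnar1 and Ifnar2 and, through the kinases Jak1 and Tyk2, activate a transcription factor complex that contains Stat2 and Irf9 and binds interferon-stimulated response elements in the promoters of the genes described here. The products of these genes detect viral RNA, block its translation, degrade it, or tag viral and host proteins with the ubiquitin-like protein ISG15. In endothelium, TNF is known to raise a delayed set of these genes through interferon beta made by the treated cells themselves.

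The libraries held between 23009062 and 26944030 counts. Levels are CPM, the count of a gene scaled to a common library size, which compare one gene between libraries, and "with" and "without" refer to the cytokines. Erg had 34.7 and 90.2 CPM in dKO with, 40.1 and 91.3 CPM in dKO without, 208 and 201 CPM in WT with, and 196 and 186 CPM in WT without. Fli1 had 12.4 and 35.2 CPM in dKO with, 21.9 and 62.5 CPM in dKO without, 91.5 and 96.4 CPM in WT with, and 161 and 177 CPM in WT without. Every dKO library was below every WT library of the same treatment for both genes, and dKO replicate 2 kept more of both transcripts than dKO replicate 1. None of these 4 genotype tests passed an adjusted p of 0.05 (edgeR, adjusted p from 0.0538 to 0.0864). Endothelial markers summed over 10 genes stood between 1563 and 3300.1 CPM in dKO libraries, against 5577 to 9367 CPM in WT libraries. Leukocyte markers summed over 12 genes stood between 6.52 and 11.4 CPM in dKO libraries and between 12.7 and 18.7 CPM in WT libraries, and Cd3e, Ncr1 and Tyrobp were at 0 in every library. Markers of stellate cells, pericytes and fibroblasts, 12 genes in all, summed to 13400.3 to 19188 CPM in dKO and 9220 to 10857 CPM in WT. Hepatocyte markers, 7 genes, summed to 106 to 252 CPM in dKO and 1.69 to 4.48 CPM in WT, and cholangiocyte and mesothelium markers, also 7, to 36 to 262 CPM in dKO and 2.47 to 3.06 CPM in WT. The part of these cell types in the results was not tested. In bulk RNA, fewer cells expressing a gene and less RNA of that gene per cell cannot be told apart. The labels do not say whether replicate libraries came from different animals or cultures, and the spread behind every p-value is that between these libraries. Replicates differed in sex-linked transcripts in both genotypes, so they were not repeat libraries of the same cells.

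The comparison of cytokine-treated with untreated cells asks how the inflammatory stimulus changed these genes in each genotype. In dKO cells 0 of the 35 rose and 0 fell (edgeR quasi-likelihood test, Benjamini-Hochberg adjusted p under 0.05), where 3.5% of all tested genes rose and 2.06% fell. At an unadjusted p under 0.05, 1 of the 35 differed in dKO, against 23.4% of all tested genes. DESeq2 called 1 member, which was Mx1, and 1725 genes in all. Libraries with cytokines did not overlap those without in 9 members that were higher and 3 that were lower in dKO, against 24.7% and 24.8% of all tested genes. In WT cells 33 of the 35 rose, 0 fell, and Bst2 and Trim25 did not pass by the same test, where 9.72% of all tested genes rose and 7.69% fell. Of the 33 members other than Oas2 and Oas3, which passed the filter only through WT with cytokines, 31 rose. The median log2 fold change of the 35 was 0.16 in dKO cells, between -2.50 and 2.86, and 3.52 in WT cells, an 11.5-fold median rise, between 0.16 and 7.28. The median over all tested genes was -0.01 in both genotypes. The WT rises kept their size when either untreated WT library was left out, with a median of 3.60 or 3.57. Fewer members passed in those fits, and so did fewer of all tested genes. The members that rose without each of the 4 WT libraries in turn were Ifi44, Mx2 and Parp9.

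**Figure D1:**
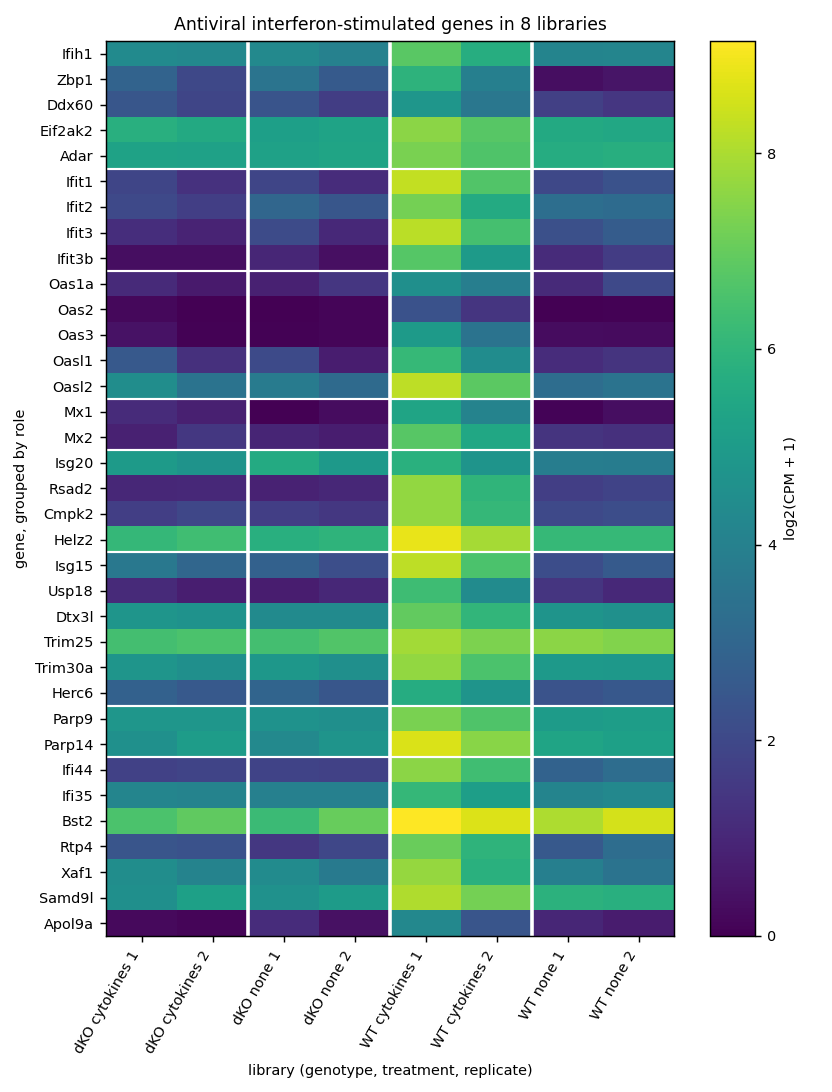
Level of each of the 35 genes (rows, grouped by role) in each of the 8 libraries (columns, by genotype, treatment and replicate), coloured by log2(CPM + 1). The WT libraries with cytokines are the brightest columns for most genes, replicate 1 brighter than replicate 2. Between dKO libraries with and without cytokines 0 of the 35 genes passed the test, where 3.5% of all tested genes rose and 2.06% fell.

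**Figure D2:**
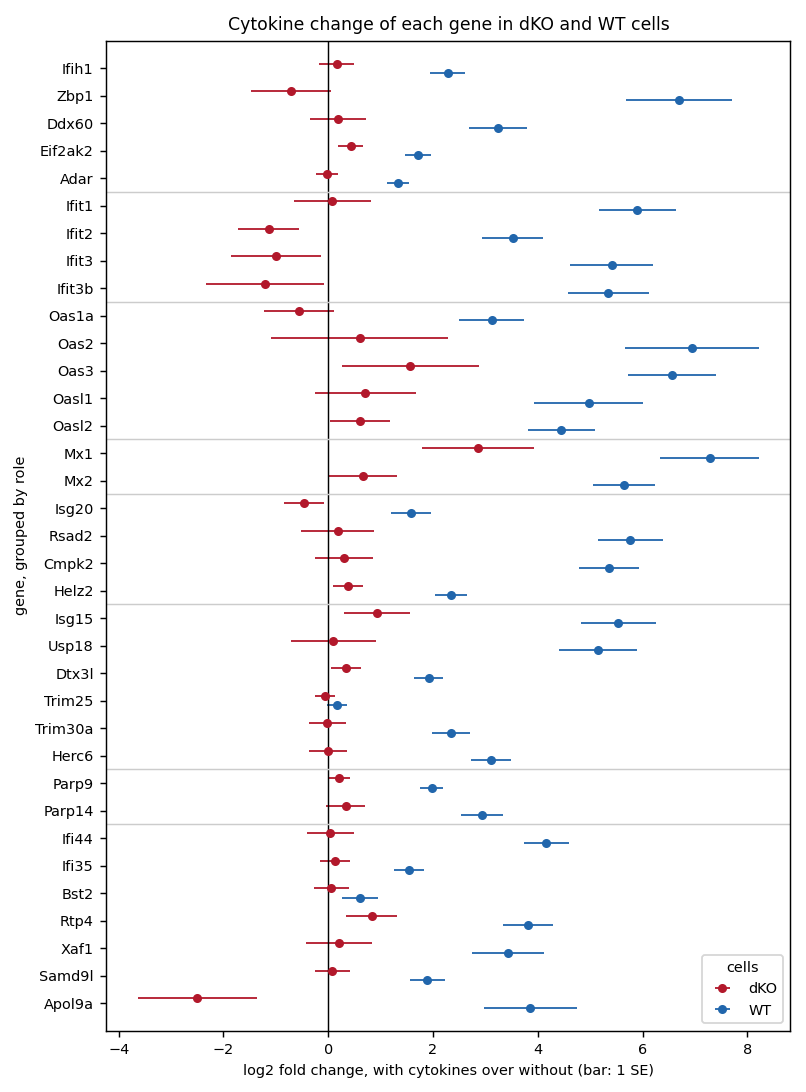
Log2 fold change with cytokines over without, for each gene, in dKO cells (red, upper point of each pair) and WT cells (blue, lower point), with bars of 1 standard error. WT values lie to the right of 0, up to 7.28 for Mx1, and those of dKO cells lie around 0, with a median of 0.16.

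Promoter sequences are shown for 5 members that rose in WT cells and for Bst2, which did not pass there, because a response element in the sequence is what is known to tie such genes together. The RefSeq promoter table (GRCm38.p6) held 27 of the 35 genes, and the 250 bases before the transcript start were searched on both strands for the core of the interferon-stimulated response element, taken as GAAA, any 2 bases, GAAA, which on the other strand reads TTTC, any 2 bases, TTTC. It was found in 11 of the 27, or 40.7%, and in 936 of all 27025 genes of the table, or 3.46%. The 11 were Ifit1, Ifit3, Ifit3b, Isg15, Oas1a, Oas3, Rsad2, Bst2, Trim30a, Ddx60 and Apol9a. The sequences below are written 5′ to 3′ in the direction of transcription, with the matches in capitals. Overlapping matches share their capitals in Isg15 and Bst2.
Isg15, chr4:156200860-156200911, minus strand: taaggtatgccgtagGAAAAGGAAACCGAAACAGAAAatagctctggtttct
Ifit1, chr19:34640770-34640828, plus strand: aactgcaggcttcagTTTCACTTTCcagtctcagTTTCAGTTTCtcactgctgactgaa
Ifit3, chr19:34583358-34583431, plus strand: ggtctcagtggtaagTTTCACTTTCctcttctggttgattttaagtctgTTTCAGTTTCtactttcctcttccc
Ifit3b, chr19:34607754-34607827, plus strand: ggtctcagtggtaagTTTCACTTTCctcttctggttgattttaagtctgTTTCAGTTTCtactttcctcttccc
Rsad2, chr12:26456548-26456587, minus strand: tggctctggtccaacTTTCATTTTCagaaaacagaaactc
Bst2, chr8:71537572-71537617, minus strand: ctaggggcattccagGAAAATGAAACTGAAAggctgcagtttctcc
Isg15 held 3 matches, with first bases from 78 to 66 bases before the start. The windows of Ifit3 and Ifit3b were identical over all 74 bases. Bst2 held 2 overlapping matches. The gamma-activated site, taken as TTC, any 3 bases, GAA, was found in 5 of the 27 genes, or 18.5%, against 8.13% of all genes in the table, and in the Bst2 window it overlapped the response element. The form GGAA, any 2 bases, GAAA, to which an ETS and an interferon regulatory factor can bind side by side, was found in Ifi44 alone of the 27, or 3.7%, against 2.68% of all genes. A kappaB form, GGGA, any base, TTTCC, was found in 0 of the 27 and in 0.414% of all genes. A match describes these letters only and is not evidence of binding.

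Among the genes for sensing and editing nucleic acid, Ifih1, Zbp1, Ddx60, Eif2ak2 and Adar, 0 of 5 passed with cytokines in dKO and 5 of 5 rose in WT. Of all tested genes 3.5% rose and 2.06% fell in dKO, and 9.72% rose in WT. A count of 0 in dKO is near that share in groups of this size, here and in the groups below. Zbp1, a sensor of left-handed nucleic acid that can start necroptosis, had 6.59 and 2.96 CPM in dKO with, 10.5 and 5.07 CPM in dKO without, 59 and 14.5 CPM in WT with, and 0.258 and 0.438 CPM in WT without. Its WT libraries with cytokines were thus the highest and its WT libraries without the lowest, with all dKO libraries between them. The log2 fold change for cytokines was -0.71 in dKO (SE 0.76, adjusted p = 0.643) and 6.69 in WT, a 103-fold rise (SE 1.01, adjusted p = 0.0114). Ifih1, which encodes the long RNA sensor MDA5, had 19.6 and 18.4 CPM in dKO with, 18.8 and 15.2 CPM in dKO without, 109.8 and 51.6 CPM in WT with, and 16.4 and 16.8 CPM in WT without. Eif2ak2, the kinase PKR that halts translation when it binds double-stranded RNA, had 53.6 and 46 CPM in dKO with, 35.3 and 38.5 CPM in dKO without, 189 and 109 CPM in WT with, and 46.4 and 44.1 CPM in WT without. Both WT libraries with cytokines lay above all others for each of these genes. Adar, which edits adenosine to inosine in double-stranded RNA, rose 2.51-fold in WT (log2 fold change 1.33, adjusted p = 0.0105), the smallest rise past the threshold among the 35, with 37.7 and 36.9 CPM in dKO with cytokines and 158 and 98.6 CPM in WT with cytokines. Ddx60, a helicase linked to RNA sensing, had 4.5 and 2.78 CPM in dKO with and 27.1 and 11.4 CPM in WT with, a 9.43-fold rise over untreated WT.

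The Ifit genes encode proteins that bind foreign RNA, Ifit1 at the cap, and lie next to each other on chromosome 19 (Ifit2 from 34550694 to Ifit1 at 34650009, GRCm38). In dKO 0 passed with cytokines, and in WT all 4 rose. Ifit1 had 2.73 and 1.46 CPM in dKO with, 2.73 and 1.25 CPM in dKO without, 316 and 100.1 CPM in WT with, and 2.95 and 3.98 CPM in WT without. All 4 dKO libraries were below both untreated WT libraries, with or without cytokines. Ifit2 had 3.04 and 2.21 CPM in dKO with, 7.11 and 4.45 CPM in dKO without, 149 and 47.8 CPM in WT with, and 9.01 and 8.12 CPM in WT without. Ifit3 had 1.27 and 0.883 CPM in dKO with, 3.22 and 1.08 CPM in dKO without, 295 and 86.3 CPM in WT with, and 3.66 and 5.29 CPM in WT without. Ifit3b had 0.273 and 0.265 CPM in dKO with, 0.983 and 0.291 CPM in dKO without, 105 and 30.4 CPM in WT with, and 1.18 and 2.12 CPM in WT without. The libraries of Ifit2 and Ifit3b with cytokines lay below those without in dKO and above them in WT, although the dKO log2 fold changes of -1.14 (SE 0.59, adjusted p = 0.315) and -1.21 (SE 1.12, adjusted p = 0.582) did not pass. Of the runs of 50 bases in Ifit3 transcripts, 51.2% are also in Ifit3b, so the split of reads between the pair is uncertain. Under cytokines all 4 were lower in dKO than in WT. Ifit3b was 248-fold lower in dKO than in WT (-7.95 on the log2 scale, SE 0.96, adjusted p = 0.00398), Ifit3 176-fold lower (-7.46, SE 0.90, adjusted p = 0.00408) and Ifit1 99.4-fold lower (-6.63, SE 0.78, adjusted p = 0.00388).

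The oligoadenylate synthetases make the messenger that activates RNase L, which cuts viral and cellular RNA, and Oasl1 and Oasl2 are relatives of these enzymes. In dKO 0 passed with cytokines, in WT all 5 rose, and all 5 were lower in dKO than in WT under cytokines. Oas2 and Oas3 could be tested only because they were high in WT with cytokines. Oas2 had 0.136 and 0 CPM in dKO with, 0 and 0.0832 CPM in dKO without, 3.97 and 1.65 CPM in WT with, and 0 and 0.0337 CPM in WT without. Its summed counts were 3 in dKO with, against 132 in WT with, a 40.8-fold lower level with a 95% counting interval from 13.7 to 200.4. In WT without cytokines Oas2 had 1 count, a ratio of 156 for WT with over WT without, with a counting interval from 27.4 to 6191. Oas3 had 0.363 and 0.0442 CPM in dKO with, 0.0447 and 0.0832 CPM in dKO without, 30.8 and 10.3 CPM in WT with, and 0.222 and 0.202 CPM in WT without, and rose 94.9-fold in WT (log2 fold change 6.57, SE 0.84, adjusted p = 0.00651). Only in WT with cytokines did either gene exceed 0.363 CPM in any library. Oasl2 had 21.6 and 10.2 CPM in dKO with, 13 and 7.94 CPM in dKO without, 302 and 113 CPM in WT with, and 8.68 and 10.2 CPM in WT without. Oasl1, an inhibitor of Irf7 translation in mice, had 4.86 and 1.41 CPM in dKO with, 3.17 and 0.665 CPM in dKO without, 69.6 and 20.7 CPM in WT with, and 1.26 and 1.62 CPM in WT without. For this pair the dKO libraries spread around the untreated WT level, replicate 1 above replicate 2. Oas1a had 1.14 and 0.574 CPM in dKO with and 22.8 and 14 CPM in WT with, and shares 57.6% of its runs of 50 bases with Oas1g, so its counts are uncertain.

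The dynamin-like GTPases Mx1 and Mx2 block early steps of viral infection, Mx1 in the nucleus in mice. Mx1 had 1.18 and 0.751 CPM in dKO with, 0 and 0.249 CPM in dKO without, 39.8 and 16.2 CPM in WT with, and 0.0739 and 0.27 CPM in WT without. Its dKO libraries with cytokines were both above those without, and far below WT with cytokines. The dKO log2 fold change was 2.86 (SE 1.07, adjusted p = 0.181 in edgeR). The Mx1 rise in WT was 155-fold (log2 fold change 7.28, SE 0.95, adjusted p = 0.00743). It was the largest of the 35 as fitted by edgeR, in which Oas2 was at 124-fold. Mx2 had 0.772 and 1.77 CPM in dKO with, 0.938 and 0.665 CPM in dKO without, 108 and 43.1 CPM in WT with, and 1.59 and 1.42 CPM in WT without, a 50.1-fold WT rise.

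Of 4 genes for nucleotide and nucleic acid metabolism, all rose in WT and 3 were lower in dKO than in WT under cytokines. Rsad2, which encodes viperin, an enzyme that makes a chain-terminating nucleotide, lies beside the nucleotide kinase gene Cmpk2 on chromosome 12 (Rsad2 from 26442746 to 26456452 and Cmpk2 from 26469204 to 26479837). Rsad2 had 1.04 and 1.1 CPM in dKO with, 0.849 and 1.04 CPM in dKO without, 202 and 62 CPM in WT with, and 2.25 and 2.56 CPM in WT without. Cmpk2 had 2.23 and 2.83 CPM in dKO with, 2.28 and 1.83 CPM in dKO without, 200.1 and 68.1 CPM in WT with, and 3.03 and 3.47 CPM in WT without. Both neighbours rose in WT, by 54.6-fold and 41.2-fold. Under cytokines Rsad2 was 122-fold lower in dKO than in WT (-6.93 on the log2 scale, SE 0.67, adjusted p = 0.00254). Helz2, a helicase and co-activator of nuclear receptors, had 67.4 and 80.8 CPM in dKO with, 53.2 and 60.4 CPM in dKO without, 459 and 241 CPM in WT with, and 68.9 and 69.7 CPM in WT without. Isg20, an exonuclease, was the exception, with 30.5 and 24.8 CPM in dKO with, 46.7 and 29.2 CPM in dKO without, 54.9 and 25.9 CPM in WT with, and 13.7 and 13.3 CPM in WT without. Its libraries with cytokines overlapped between the genotypes, and it was the member that did not pass there (log2 fold change -0.55, SE 0.38, adjusted p = 0.3).

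The ISG15 system attaches a ubiquitin-like protein to targets. Isg15 itself had 11.6 and 7.07 CPM in dKO with, 6.17 and 3.58 CPM in dKO without, 302 and 93.1 CPM in WT with, and 3.51 and 4.99 CPM in WT without. The dKO libraries with cytokines were above all libraries without, yet the dKO log2 fold change of 0.94 (SE 0.63, adjusted p = 0.438) did not pass, whereas the WT rise was 46.4-fold (log2 fold change 5.54, SE 0.71, adjusted p = 0.0078). Usp18, which removes ISG15 and damps signalling at the interferon receptor, had 1.14 and 0.707 CPM in dKO with, 0.67 and 1.04 CPM in dKO without, 77.3 and 20.2 CPM in WT with, and 1.66 and 1.08 CPM in WT without. Herc6, the ligase that joins ISG15 to proteins in mice, had 6.09 and 4.95 CPM in dKO with, 6.7 and 4.45 CPM in dKO without, 50.1 and 25.7 CPM in WT with, and 4.06 and 4.72 CPM in WT without. In all 4 dKO libraries both genes were far below WT with cytokines. Trim30a, a negative regulator of NF-kB signalling, had 26.4 and 22.7 CPM in dKO with, against 204 and 93.5 CPM in WT with. Trim25, a ubiquitin ligase that assists the RNA sensor RIG-I, had 84.4 and 92.1 CPM in dKO with, 83.8 and 101 CPM in dKO without, 235 and 163 CPM in WT with, and 187 and 169 CPM in WT without. All dKO libraries of Trim25 were below all WT libraries, and its log2 fold changes for cytokines were -0.07 in dKO (adjusted p = 0.87) and 0.16 in WT (adjusted p = 0.608).

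Parp9 and Parp14, members of the ADP-ribosyltransferase family, and Dtx3l, the ubiquitin ligase partner of Parp9, lie together on chromosome 16 (Parp14 from 35832874 to Parp9 at 35972605). Parp9 had 26.9 and 27 CPM in dKO with, 24.5 and 22.5 CPM in dKO without, 158 and 97.2 CPM in WT with, and 31.8 and 32.9 CPM in WT without. Parp14 had 23 and 32.4 CPM in dKO with, 18.7 and 25.5 CPM in dKO without, 392 and 184 CPM in WT with, and 39.7 and 36 CPM in WT without. Dtx3l had 26 and 24.6 CPM in dKO with, 20 and 20 CPM in dKO without, 122 and 64 CPM in WT with, and 25.8 and 23.4 CPM in WT without. All 3 rose in WT, by 3.95-fold, 7.61-fold and 3.78-fold, and each was lower in every dKO library with cytokines than in any WT library with them. Parp9 and Dtx3l overlap at their starts, over 8% of the exon bases of Dtx3l. Dtx3l and Gm15564 together overlap 9.4% of the exon bases of Parp9.

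The remaining members act at membranes or in other ways, and 6 of these 7 rose in WT. Bst2, or tetherin, which holds budding virus at the cell surface, had 92.9 and 120.3 CPM in dKO with, 73.6 and 130.3 CPM in dKO without, 567 and 406 CPM in WT with, and 259 and 379 CPM in WT without. Like Trim25 its dKO libraries were all below its WT libraries, and the WT log2 fold change for cytokines was 0.61 (SE 0.34, adjusted p = 0.27). Ifi44 had 2.45 and 2.65 CPM in dKO with, 2.59 and 2.37 CPM in dKO without, 188 and 80.9 CPM in WT with, and 6.31 and 8.73 CPM in WT without. Samd9l, a restriction factor for poxviruses, had 22.8 and 35.4 CPM in dKO with, 23.7 and 31.2 CPM in dKO without, 265 and 149 CPM in WT with, and 57.9 and 54 CPM in WT without. Both genes were below untreated WT in all dKO libraries. Rtp4, a chaperone-like protein of receptors, had 4.36 and 3.89 CPM in dKO with and 131 and 60.1 CPM in WT with. Xaf1, which promotes apoptosis, had 21.4 and 16 CPM in dKO with and 209.6 and 54.7 CPM in WT with. Ifi35 had 16.8 and 15.9 CPM in dKO with and 67.2 and 34.4 CPM in WT with. These 3 rose 14.2-fold, 10.7-fold and 2.92-fold over untreated WT cells. Apol9a, of the apolipoprotein L family, had 0.182 and 0.0883 CPM in dKO with, 1.25 and 0.333 CPM in dKO without, 18.5 and 4.36 CPM in WT with, and 0.96 and 0.607 CPM in WT without. In dKO both of its libraries with cytokines were below both without (log2 fold change -2.50, SE 1.14, adjusted p = 0.253), and in WT both were above (log2 fold change 3.86, SE 0.88, adjusted p = 0.0328). With a block on replicate number inside each genotype, the Apol9a fall in dKO passed (log2 fold change -2.48, adjusted p = 0.0308).

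**Figure D3:**
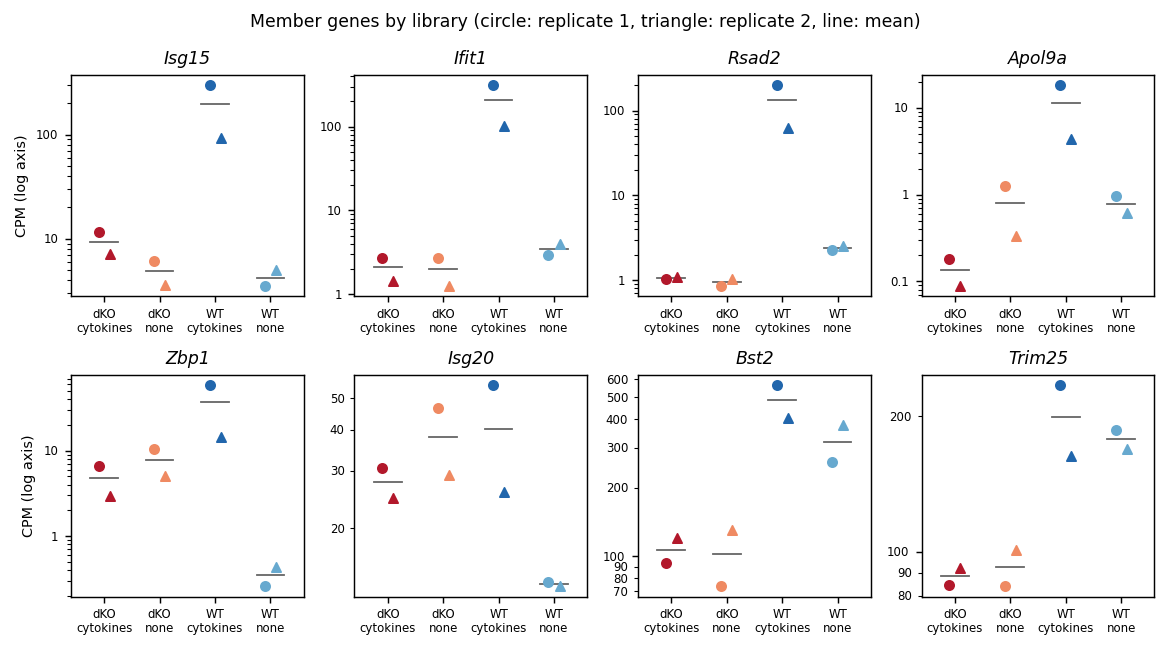
CPM on a log axis in each library for 8 genes, with groups from left to right dKO with cytokines, dKO without, WT with and WT without. Isg15, Ifit1, Rsad2 and Apol9a are high only in WT with cytokines, Zbp1 and Isg20 are lowest in WT without, and Bst2 and Trim25 are lower in all dKO libraries than in all WT libraries.

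The comparison of dKO with WT cells under cytokines asks how the genotypes differed once stimulated. Of the 35 genes 34 were lower in dKO and 0 were higher, with Isg20 as the exception, where 15.4% of all tested genes were lower. Of the 33 members other than Oas2 and Oas3, 32 were lower. The log2 fold change was below 0 for all 35, with a median of -3.70, or 13-fold lower, and a median over all tested genes of 0.01. In 34 of the 35 both dKO libraries were below both WT libraries, against 36.2% of all tested genes, and in 0 they were above, against 37.2%. The members' summed level was 627 and 642 CPM in dKO with, 567 and 606 CPM in dKO without, 5886 and 2696 CPM in WT with, and 916 and 1021 CPM in WT without. Without each of the 4 libraries in turn 24 members kept their call. Without both dKO replicate 2 libraries 22 passed.

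The difference between the cytokine change in dKO and that in WT was tested as an interaction. It was below 0 for all 35 genes, with a median of -3.68 on the log2 scale, between -7.40 for Zbp1 and -0.23 for Trim25. In edgeR 0 of the 35 and 0 of all 15698 genes passed, which is 0% in each direction, with adjusted p from 0.181 to 0.82 over the 35. At an unadjusted p under 0.05, 33 of the 35 passed, against 10.7% of all tested genes. Those that passed include Oas2 and Oas3, which could be tested only because they were high in WT with cytokines. The interaction median and the DESeq2 count are not given without these 2 genes. DESeq2 called 30 of the 35 lower, where 1.56% of its genes with an adjusted p were lower. With a block on replicate number inside each genotype, edgeR called 10 of the 35 lower and 0 higher, against 2.8% and 3.24% of all tested genes. Those 10 were Zbp1, Apol9a, Ddx60, Herc6, Usp18, Parp9, Samd9l, Mx2, Dtx3l and Parp14, with adjusted p from 0.00374 for Ddx60 to 0.0327 for Parp14. Without WT replicate 2 with cytokines the median was -3.98. Some members then passed in edgeR, among them Rsad2 and Cmpk2, as did genes outside the set. The interaction call of these genes therefore depended on the tool, on the pairing and on 1 library, while the sign was the same in each.

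Without cytokines the comparison of dKO with WT cells asks whether these genes already differed at rest. There 2 rose, 3 fell and 30 did not pass, where 13.4% of all tested genes rose and 9.66% fell. Zbp1 was 21.9-fold higher in dKO (log2 fold change 4.45, SE 0.96, adjusted p = 0.0255) and Isg20 2.81-fold higher (log2 fold change 1.49, SE 0.39, adjusted p = 0.0415). Bst2 was lower by 3.13-fold (-1.65 on the log2 scale, SE 0.35, adjusted p = 0.0228), Ifi44 by 3.03-fold (-1.60, SE 0.42, adjusted p = 0.0428) and Trim25 by 1.92-fold (-0.94, SE 0.19, adjusted p = 0.0183). In 22 of the 35 both dKO libraries were below both WT libraries, against 34.1% of all tested genes, and the median log2 fold change was -0.43 (0.017 over all tested genes). These 5 calls were lost without untreated dKO replicate 1 or either untreated WT library, where fewer of all tested genes passed too. The median was then -0.40 without untreated dKO replicate 1, and -0.48 or -0.37 without untreated WT replicate 1 or 2. Without either WT library with cytokines, which enter the shared spread only, more members fell, although fewer of all tested genes passed. Without both dKO replicate 2 libraries the median was -0.42, and Zbp1 and Isg20 did not pass, although more of all tested genes did. DESeq2 called 2 members higher and 6 lower, and 4285 genes in all.

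The WT replicates with cytokines differed from each other in the same way for every gene of the set. Replicate 1 was above replicate 2 in 35 of 35 members, by 1.4-fold for Bst2 up to 4.24-fold for Apol9a, with a median of 2.37-fold. Over all tested genes at 1 CPM or more, the same ratio had a median of 1, with its 5th and 95th percentiles at 0.673 and 1.39. In the other groups the median ratio of members at 1 CPM or more was 1.09 in dKO with, 1.22 in dKO without and 0.954 in WT without. The replicates also differed in sex-linked transcripts, since WT replicate 1 had 110.2 CPM of the Y-linked Ddx3y and 0.926 CPM of Xist with cytokines and WT replicate 2 had 0.0393 and 454 CPM. In dKO, replicate 1 had 1.32 CPM of Xist and 158 CPM of Ddx3y with cytokines, and replicate 2 had 171 and 117 CPM, so that both transcripts were high in dKO replicate 2. Whether this bears on the members was not tested. With WT replicate 1 with cytokines left out, the median log2 fold change for cytokines in WT was 2.53, and with replicate 2 left out it was 4.12.

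**Figure D4:**
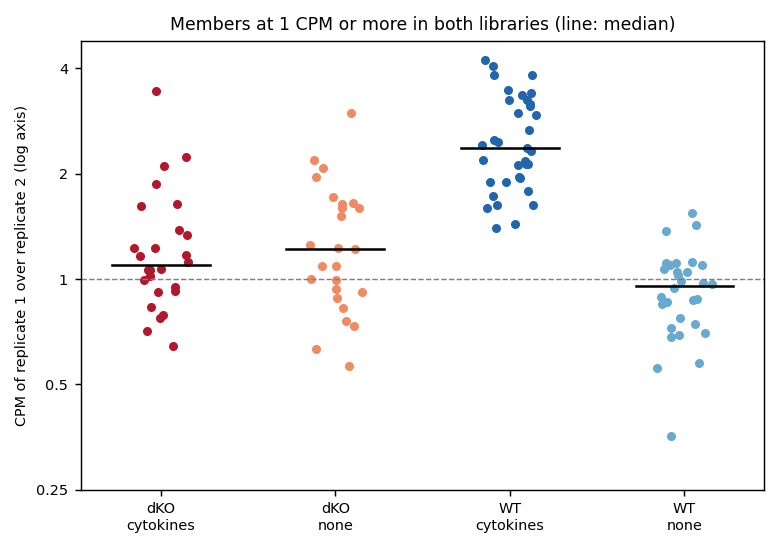
Ratio of CPM in replicate 1 to replicate 2 on a log axis for each member at 1 CPM or more in both libraries of a group, with the median as a line and 1 as a dashed line. In WT with cytokines all 35 points lie above 1 with a median of 2.37, and in the other 3 groups the points lie on both sides of 1.

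The upstream pathway was read from lists of ligands, receptors, transcription factors, sensors and negative regulators. Of 21 interferon genes in the table, 17 were at 0 in every library and none passed the filter. Ifnb1, which encodes interferon beta, had 0 and 0 counts in dKO with, 0 and 0 in dKO without, 10 and 2 in WT with, and 0 and 0 in WT without. Counts were thus seen in WT with cytokines alone, more in replicate 1 than in replicate 2. With 3 counts over the group in place of 0, Ifnb1 was 3.71-fold lower in dKO with cytokines than in WT with cytokines. This value allows for the counting error of the 0 only, and takes the 12 counts of WT with cytokines as exact.

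Of 9 receptors and kinases, 2 rose with cytokines in dKO (Jak2 and Ifnar1) and 4 in WT, and 0 fell in either. Jak2, a kinase of the interferon gamma receptor, had 1418 and 1187 CPM in dKO with, 317 and 271 CPM in dKO without, 577 and 485 CPM in WT with, and 98.7 and 94.1 CPM in WT without. Its rise was 4.43-fold in dKO (adjusted p = 0.00445) and 5.51-fold in WT (adjusted p = 0.0011), and it was higher in dKO than in WT under both conditions. Ifnar1 had 373 and 434 CPM in dKO with, 162 and 202 CPM in dKO without, 298 and 315 CPM in WT with, and 143 and 152 CPM in WT without, and rose 2.22-fold in dKO and 2.08-fold in WT. Jak1 was 2.48-fold lower in dKO than in WT under cytokines (log2 fold change -1.31, SE 0.22, adjusted p = 0.00773) and 1.79-fold lower without.

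Of 12 transcription factors of the pathway, 2 rose with cytokines in dKO, 7 rose in WT, and 7 were lower in dKO than in WT under cytokines. Irf7, the factor that amplifies type I interferon genes, had 7.5 and 6.1 CPM in dKO with, 6.88 and 6.44 CPM in dKO without, 207 and 71.1 CPM in WT with, and 7.46 and 10.3 CPM in WT without. It had a log2 fold change of 0.03 in dKO (SE 0.50, adjusted p = 0.983) and rose 15.7-fold in WT (adjusted p = 0.00834). Stat2 and Irf9, chosen after their values were seen because they act together in one complex, had log2 fold changes of 0.18 and -0.42 in dKO (adjusted p = 0.779 and 0.353) and rose 4.22-fold and 2.84-fold in WT. Under cytokines Irf9 was 4.98-fold lower in dKO than in WT (-2.32 on the log2 scale, SE 0.25, adjusted p = 0.00269) and Stat2 4.77-fold lower (-2.25, SE 0.31, adjusted p = 0.00515). The 2 factors that rose in dKO were Irf5 and Irf1. Irf1 had 134 and 119 CPM in dKO with, 43.6 and 41.5 CPM in dKO without, 257 and 168 CPM in WT with, and 44.3 and 45.2 CPM in WT without. It rose 2.98-fold in dKO (adjusted p = 0.0136) and 4.75-fold in WT (adjusted p = 0.00241). Irf5 rose 7.66-fold in dKO, to 3.72 and 3.53 CPM, and 5.56-fold in WT, to 11 and 7.7 CPM, and without cytokines it was 3.55-fold lower in dKO than in WT (adjusted p = 0.0392).

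**Figure D5:**
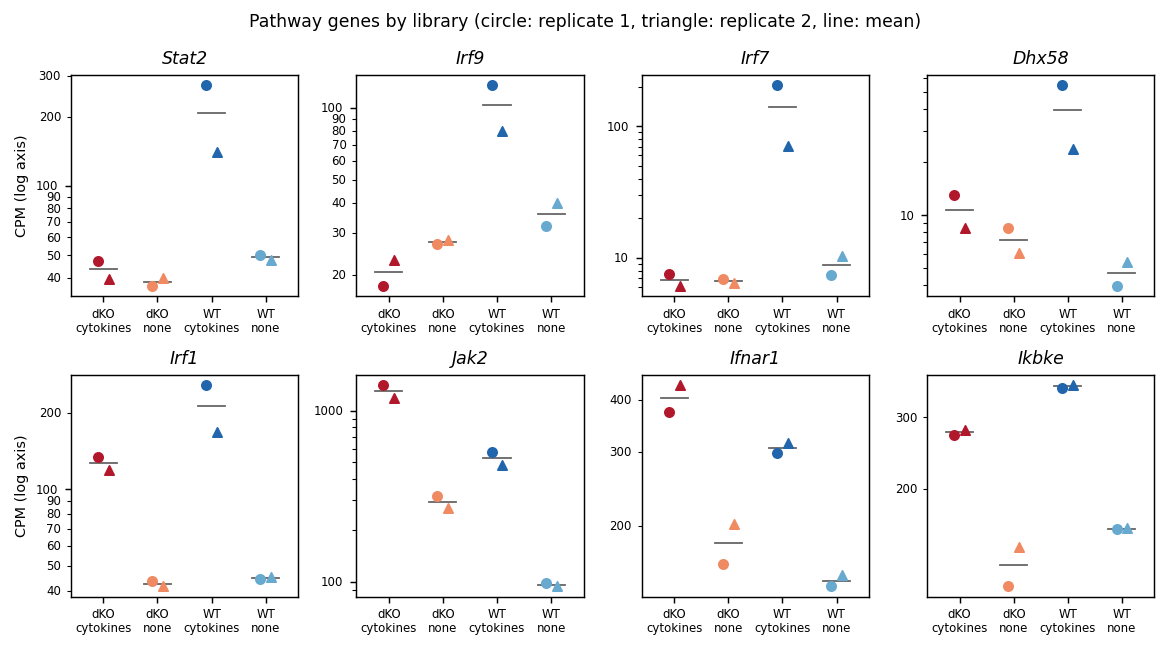
CPM on a log axis in each library for 8 pathway genes, with groups from left to right dKO with cytokines, dKO without, WT with and WT without. Stat2, Irf9, Irf7 and Dhx58 are highest in WT with cytokines, whereas Irf1, Jak2, Ifnar1 and Ikbke are higher with cytokines than without in both genotypes.

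Of 14 sensors and adaptors upstream of interferon 12 were tested, and 2 rose with cytokines in dKO, 6 rose and 1 fell in WT, and 1 was higher and 6 were lower in dKO than in WT under cytokines. The one that fell in WT and was higher in dKO was Mavs, the mitochondrial adaptor of RIG-I-like sensors, 1.66-fold higher in dKO under cytokines (adjusted p = 0.016) and chosen after its values were seen. Dhx58, a helicase that modulates RIG-I-like sensors, had 13.1 and 8.44 CPM in dKO with, 8.45 and 6.07 CPM in dKO without, 55.3 and 23.8 CPM in WT with, and 3.95 and 5.39 CPM in WT without. Tlr3, the endosomal receptor for double-stranded RNA, was 5.15-fold lower in dKO than in WT under cytokines and 2.07-fold lower without, and Ddx58, which encodes RIG-I, 4.22-fold and 2.04-fold lower. Ikbke, a kinase that activates interferon regulatory factors, rose 2.12-fold in dKO (adjusted p = 0.0105) and 2.23-fold in WT (adjusted p = 0.00363), and Traf3, an adaptor of the same route, rose 1.54-fold in dKO. Of 6 negative regulators 0 passed in dKO and Socs1 rose in WT, 2.07-fold (adjusted p = 0.0498). Ptpn2, a phosphatase of Jak kinases, had 411 and 286 CPM in dKO with, 377 and 249 CPM in dKO without, 107 and 101 CPM in WT with, and 94.3 and 91 CPM in WT without, and was 3.35-fold higher in dKO than in WT with cytokines (adjusted p = 0.00475) and 3.38-fold without (adjusted p = 0.00658).

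Levels between genes were compared per kilobase of merged exon. On the scale of mean CPM per kilobase, Bst2 stood highest in every group, at 118 in dKO with, 113 in dKO without, 539 in WT with and 353 in WT without. In WT with cytokines Isg15 followed at 261, Ifit3 at 109 and Ifit1 at 78.3, and Oas2 was lowest at 0.631. In dKO with cytokines the next were Trim25 at 15.3, Isg20 at 14.9 and Isg15 at 12.3, with Ifit3 at 0.618 and Ifit1 at 0.787. The order of Trim25, Isg20 and Isg15 was not tested.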

How the data were processed

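The authors deposited 1 table of unnormalized counts of reads, with Ensembl genes as rows and 8 libraries as columns. FastQC 0.11.5, STAR 2.7.6a and GRCm38 are named, per the submitters' processing notes. For the counting program, the annotation release and the strand setting: not given in the sources used here. The kit, per the labels' protocols, was either unstranded or stranded, so Adar, with 16.8% of its exon bases under Chrnb2, is uncertain, as are Parp9 and Dtx3l. Genes sharing over 10% of their runs of 50 bases with other genes (Ifit3, Ifit3b, Oas1a, Apol9a, Herc6, Rtp4, Ifi35 and Adar) are also uncertain.

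In R 4.3.3, edgeR 4.0.16 was run with TMM scaling, its filterByExpr rule for low counts and a robust quasi-likelihood fit of 4 group means over all 8 libraries, with 4 residual degrees of freedom and a common biological coefficient of variation of 24.3%. All tests were two-sided, and p-values were adjusted by Benjamini-Hochberg over 15698 genes in each of 5 contrasts. The fit was run on simulated counts with known changes in untreated dKO, read in the comparison with untreated WT only. The other contrasts and the replicate pairs were not simulated. Alternatives were DESeq2 1.42.0, other scalings, no filter, fewer libraries and replicate blocks. Gene positions are from GENCODE M21 and promoters from RefSeq, both on GRCm38. All counts of reads per library total 23009062 to 26944030, and intervals cover counting error only, since PCR copies of a molecule were counted without molecular identifiers.

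The members, roles and pathway lists were chosen with earlier results of these data known, so no test of the list as a whole is given. Every member is named, with values in every library at least for the 4 largest rises and falls past the threshold in each contrast, the highest and lowest by mean CPM, the near-identical Ifit3 and Ifit3b, and those that passed in neither cytokine contrast. Of the pathway lists, the 2 largest changes past the threshold per contrast are named, except for an item that is not reported here.

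Libraries of the same number deviated together from their group means within a genotype (correlation over 15698 genes 0.689 in dKO and 0.434 in WT), and across genotypes less so (0.0168 to 0.134). Column names of the table and sex-linked transcripts also match within a genotype. On these data, and on no statement of the labels, equal numbers were treated as pairs inside a genotype.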

Additional observations from a re-analysis of the deposited data

Results flagged for a closer look

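The cytokine change went in opposite directions in the genotypes for 3 members, with no overlap between treated and untreated libraries in either. The interaction log2 fold change, dKO minus WT, was -4.66 for Ifit2 (SE 0.81, adjusted p = 0.193), -6.56 for Ifit3b (SE 1.32, adjusted p = 0.225) and -6.36 for Apol9a (SE 1.41, adjusted p = 0.228), and none passed in edgeR without a replicate block. With the block inside each genotype, Apol9a passed (-6.15, adjusted p = 0.00471). Treated libraries of Apol9a had 4 and 2 counts in dKO, against 419 and 111 counts in WT, so its dKO level rests on few reads. Groups of 2 libraries are too small for a test of a single library standing apart.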

How the results depend on the processing

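The signs of the member medians were the same under every alternative run, except that the dKO median for cytokines, 0.16, lay between -0.03 and 0.16 when 1 library was left out. For cytokines in dKO, DESeq2 called 1 higher, and 1725 genes in all. For cytokines in WT, between 3 and 33 members rose without 1 library, with medians from 2.53 to 4.12. For dKO against WT without cytokines, DESeq2 called 6 lower, and 4285 genes in all. No filter on low counts gave 0 higher and 1 lower, and 3256 genes in all, against 3617 in the main fit. Leaving out 1 library gave medians from -0.48 to -0.37, and leaving out both dKO replicate 2 libraries -0.42. The members called changed in these fits too. For dKO against WT with cytokines, 22 were lower without both dKO replicate 2 libraries, and 26 to 34 were lower without 1 library, with medians from -4.35 to -2.73. For the interaction, DESeq2 called 30 lower, no filter 1, and leaving out 1 library 0 to 12, with medians from -4.07 to -2.95. A block on the replicate number across genotypes gave 33 higher for cytokines in WT and 34 lower for dKO against WT with cytokines. Of all tested genes it called 3337 and 6275 in these contrasts, against 2733 and 5343 without a block. With the numbers paired within a genotype, the comparisons of dKO with WT were not fitted. That block gave 33 higher for cytokines in WT, 1 lower for cytokines in dKO and 10 lower for the interaction. Of all tested genes it called 5943, 3769 and 947 in these contrasts, against 2733, 872 and 0 without a block. The causes were not tested. Where leaving out 1 library leaves a group with 1, that library is assumed to vary like the others. Depth limits Oas2, Oas3, Ifnb1, Mx1 and Apol9a, which had few counts outside WT with cytokines. Mx1 had 0 and 6 counts in dKO without and 2 and 8 in WT without. Ifit3b had 6 and 6 counts in dKO with, on which its fold between genotypes under cytokines rests.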
